A study of Mus musculus with 2 samples.

Results

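The microtubule motors of the newborn mouse midbrain were read as 54 protein-coding genes of the 21474 found in the gene tables. They were chosen by symbol alone: Kif followed by a digit, Klc followed by a digit, Dync1 or Dctn, in the GENCODE mouse annotation. By textbook role they fell into 15 transport kinesins, 12 mitotic kinesins, 6 kinesins of the cilium, the centriole or hedgehog signalling, 6 other kinesins, 4 kinesin light chains, 5 subunits of cytoplasmic dynein and 6 subunits of dynactin. Kif1bp was chosen by its symbol and is counted among the other kinesins, although it encodes a kinesin-binding protein and not a motor.

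Kinesins and cytoplasmic dynein hydrolyse ATP to walk along microtubules, most kinesins towards the plus end and dynein towards the minus end. In neurons, kinesins carry vesicles, mitochondria and RNA out along the axon, and dynein with its activator dynactin brings endosomes and signals back to the cell body. In dividing cells, another set of kinesins builds the spindle, moves chromosomes and completes cytokinesis.

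The libraries were total RNA-seq of whole midbrain from B6NCrl mice at postnatal day 0, 1 library from pup 1 and 1 from pup 3. There is 1 group, with no treatment named in its source label, so no condition was contrasted. Every difference between animals is pup 1 over pup 3. The library of pup 1 held 36934868 expected counts and that of pup 3 held 40769103. Of 5 midbrain markers, 4 reached 1 TPM in both pups (TPM, a transcript level corrected for length and library size), while 0 of 3 forebrain and 0 of 3 hindbrain and spinal cord markers did. Neuron markers summed to 4192 TPM in pup 1 and 4091 in pup 3, and proliferating cell markers to 44.0 TPM in pup 1 and 48.65 in pup 3. Each value below is a TPM, as mean ± SD over both pups (n = 2), unless a pup is named.

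Motor transcripts were broadly present. Of the 54 members, 44 had at least 1 TPM in both pups, against 62.1% of all protein-coding genes, and 12 had at least 100 TPM in both pups, against 7.85% of all protein-coding genes. The median member stood at 6.19 ± 0.0849 TPM, and the median protein-coding gene at 4.61 ± 0.127. Together the members held 0.389% ± 0.00431 of all TPM. Transport kinesins carried 38.7% ± 1.73 of the summed member TPM, dynactin 28.5% ± 1.79, the light chains 16.4% ± 0.445, dynein 11.8% ± 0.331, the other kinesins 3.72% ± 0.195, mitotic kinesins 0.557% ± 0.0441 and the kinesins of the cilium and centriole 0.233% ± 0.0225. In bulk tissue, fewer cells of a type and less RNA per cell cannot be told apart.

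**Figure D1:**
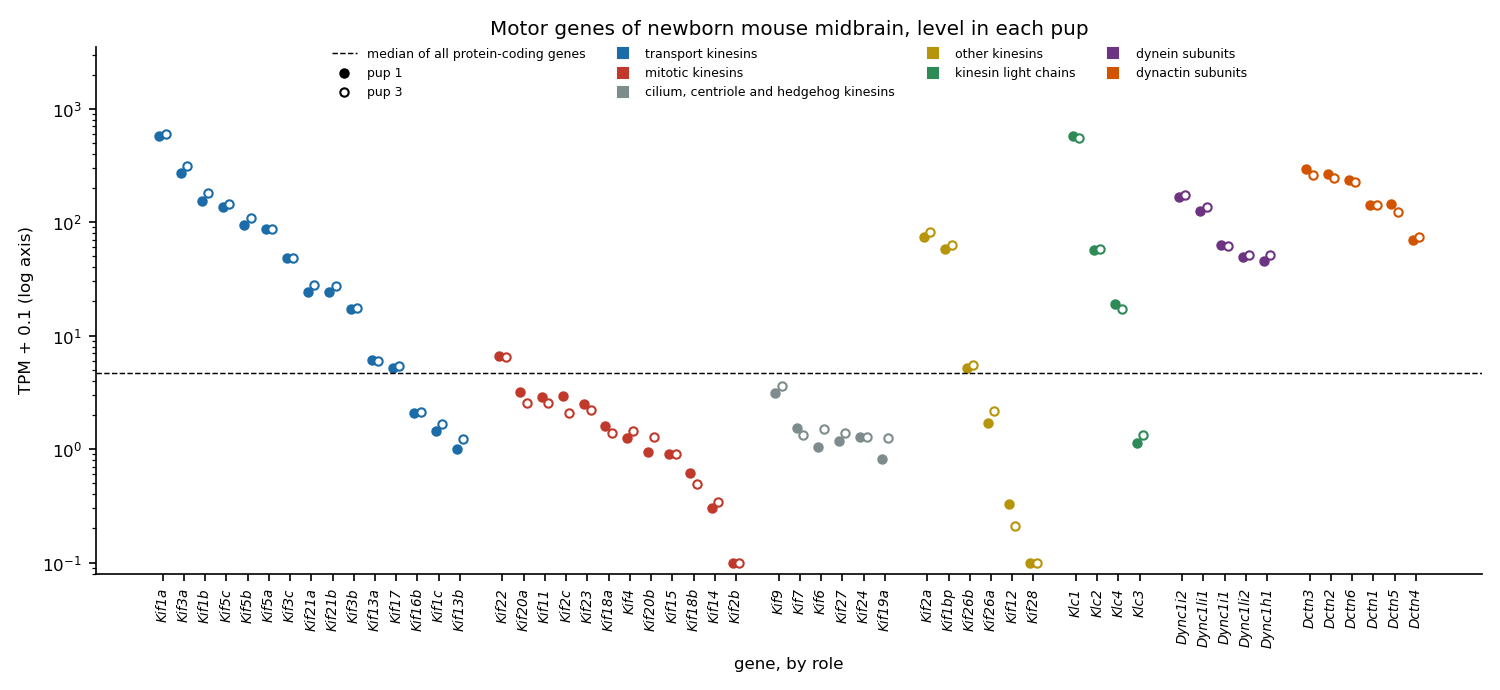
Level of each of the 54 motor genes, as TPM + 0.1 on a log axis, grouped by role and ordered by mean within a role; filled points are pup 1, open points pup 3, and the dashed line is the median of all protein-coding genes. Kif1a and Klc1 stand highest, dynein and dynactin subunits all lie well above the line, and all mitotic kinesins but Kif22 lie below it.

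Transport kinesins spread widely, from 589.7 ± 14.6 TPM for Kif1a to 1.01 ± 0.156 for Kif13b, with a median of 24.02 TPM in pup 1 and 28.03 in pup 3. Of the 15, 14 reached 1 TPM in both pups and 10 reached 10 TPM. Kif1a, a kinesin-3 that carries precursors of synaptic vesicles (ENSMUSG00000014602.11, chr1:93015464-93101951 on the minus strand, mm10), had 579.36 TPM in pup 1 and 600 in pup 3. It had the highest mean TPM of the 54 members and ranked 191 among all protein-coding genes. The light chain gene Klc1 was close, and the credibility intervals of both genes overlapped in pup 1. Its relative Kif1b, which carries mitochondria and vesicle precursors, had 153.09 TPM in pup 1 and 179.42 in pup 3. Kif1c, the third member of the subfamily and a motor of secretory vesicles, had 1.34 TPM in pup 1 and 1.57 in pup 3. The Kif1a values lay above those of Kif1b, and the Kif1b values far above those of Kif1c, without overlap between the pups.

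A pair of genes was called apart where both pups gave the same sign, the mean log2 ratio of TPM + 0.1 was larger in size than both 1 and 3 SD, and the credibility intervals deposited with the TPM were separate in each pup. Kif1a over Kif1b gave a log2 ratio of 1.83 ± 0.126 and Kif1b over Kif1c one of 6.74 ± 0.0106, so both pairs were apart. Over complete coding transcripts alone, described below, Kif1a over Kif1b came to 0.95 ± 0.0846 and was no longer called apart.

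The conventional kinesin heavy chains, encoded by Kif5a, Kif5b and Kif5c, move mitochondria, vesicles and RNA granules, and Kif5a and Kif5c are the neuronal forms. Kif5c (ENSMUSG00000026764.11, chr2:49619298-49774778 on the plus strand) had 135.38 TPM in pup 1 and 144.57 in pup 3. Kif5b, the form found in most tissues, had 94.49 TPM in pup 1 and 108.13 in pup 3. Kif5a had 87.2 TPM in pup 1 and 86.26 in pup 3. The order was the same in both pups, but the steps were small: the log2 ratio was 0.47 ± 0.0705 for Kif5c over Kif5b, -0.22 ± 0.149 for Kif5a over Kif5b and 0.69 ± 0.078 for Kif5c over Kif5a, and none of the 3 pairs was called apart. Over complete coding transcripts, Kif5c over Kif5b was 1.94 ± 0.0869, and Kif5a over Kif5b had the opposite sign at 1.25 ± 0.164.

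Heterotrimeric kinesin-2 pairs Kif3a with Kif3b or Kif3c and serves both the axon and the assembly of cilia. Kif3a had 269.25 TPM in pup 1 and 310.14 in pup 3. Kif3c had 48.58 TPM in pup 1 and 48.72 in pup 3, and Kif3b had 16.98 TPM in pup 1 and 17.58 in pup 3. Kif3a thus exceeded Kif3b by 4.06 ± 0.109 on the log2 scale and Kif3c exceeded Kif3b by 1.49 ± 0.0323, and both pairs were apart. The 3 motor genes summed to 355.6 ± 29.4 TPM and Kifap3, the non-motor subunit of the complex, had 132.9 ± 2.9, a log2 ratio of 1.42 ± 0.0881, or 0.77 ± 0.00473 over complete coding transcripts. The homodimeric kinesin-2 Kif17, which carries a glutamate receptor subunit in dendrites, had 5.13 TPM in pup 1 and 5.34 in pup 3, and lay below Kif3a by a log2 ratio of -5.76 ± 0.104.

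The kinesin-4 genes Kif21a and Kif21b stood level. Kif21a had 24.02 TPM in pup 1 and 28.03 in pup 3, and Kif21b had 23.92 TPM in pup 1 and 27.33 in pup 3, with overlapping intervals and a log2 ratio of 0.02 ± 0.0215. Over complete coding transcripts Kif21a was the higher by 1.89 ± 0.235, since 73.31% of Kif21b TPM in pup 1 and 63.48% in pup 3 was assigned to a transcript annotated for nonsense-mediated decay, with 1639 coding codons. The endosomal kinesin-3 gene Kif13a, at 5.92 ± 0.0354 TPM, exceeded Kif13b, at 1.01 ± 0.156, by 2.45 ± 0.211 on the log2 scale. In the order of transport kinesins, only Kif21a and Kif21b had pup values that overlapped between neighbours, and the intervals of Kif13a and Kif17 and of Kif16b and Kif1c also overlapped in at least 1 pup.

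The nucleotide-binding loop of the motor domain holds the phosphates of ATP, and is shared with many other nucleotide-binding proteins. It was searched in the coding sequence of the leading complete coding transcript of each gene, as a glycine, any 4 residues, a glycine, a lysine, and a serine or threonine. The pattern occurred in 37 of 39 genes with a Kif symbol; Kif1bp and the Kif17 transcript that was read had none. Among the 15 other members it occurred in 3, namely Dync1h1 and the light intermediate chains Dync1li1 and Dync1li2. The coding sequences of the loop are shown for 3 transport kinesins of 2 subfamilies and for 2 mitotic kinesins, to set the shared core beside its variation; capitals mark the 24 bases of the pattern, with 9 bases on each side, read 5′ to 3′ from GENCODE M21 transcripts (GRCm38).
Kif3a, chr11:53578852-53578893, plus strand: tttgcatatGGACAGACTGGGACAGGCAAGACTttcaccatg
Kif5c, chr2:49680194-49680235, plus strand: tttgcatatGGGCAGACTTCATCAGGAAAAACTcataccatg
Kif5a, chr10:127248033-127248074, minus strand: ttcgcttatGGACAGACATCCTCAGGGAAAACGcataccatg
Kif23, chr9:61937169-61937210, minus strand: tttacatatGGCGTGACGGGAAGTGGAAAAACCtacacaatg
Kif4, chrX:100633856-100633897, plus strand: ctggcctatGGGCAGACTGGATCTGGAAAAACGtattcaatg
Each of these 5 loops lies in a single coding exon. The match is a description of the letters and says nothing of the level of the gene.

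Mitotic kinesins were low. Their list median came to 1.32 TPM for pup 1 and 1.31 for pup 3. Of the 12, 7 reached 1 TPM in both pups, near the share of all protein-coding genes, 62.1%. At 10 TPM in both pups there were 0 of them, against 8425 of all 21474 protein-coding genes. The highest was Kif22, a chromokinesin that binds DNA and the spindle, with 6.56 TPM in pup 1 and 6.37 in pup 3. Kif20a, a kinesin of the central spindle needed for cytokinesis, had 3.1 TPM in pup 1 and 2.45 in pup 3. Kif11, the motor that pushes spindle poles apart, had 2.79 TPM in pup 1 and 2.47 in pup 3. Kif2c, which takes tubulin off microtubule ends at the centromere, had 2.83 TPM in pup 1 and 1.96 in pup 3, so that Kif20a, Kif11, Kif2c and Kif23 overlapped from neighbour to neighbour. The lowest detected member was Kif14, a motor of cytokinesis, at 0.22 ± 0.0283 TPM from 35 counts in each pup. Kif2b, a relative of Kif2c, had a count of 0 in both pups, which allows up to 3 counts in each. Of the 6 proliferating cell markers, 5 reached 1 TPM in both pups, so transcripts of dividing cells were present at low level.

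The median transport kinesin exceeded the median mitotic kinesin by 4.20 ± 0.164 on the log2 scale (4.09 in pup 1 and 4.32 in pup 3). Of the 15 transport kinesins, 10 lay above Kif22, the highest mitotic one, in both pups, and Kif1c, Kif13a, Kif13b, Kif16b and Kif17 did not. Between single genes, Kif1a exceeded Kif11 by 7.76 ± 0.155. With 2 animals, the smallest two-sided p of an exact sign-flip test is 0.5, and no p is printed for this or any later difference. The size of the contrast moved with the setting, between 3.44 with only members at a mean of at least 1 TPM and 5.58 with narrower role lists, and transport stood above mitotic in each setting.

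**Figure D2:**
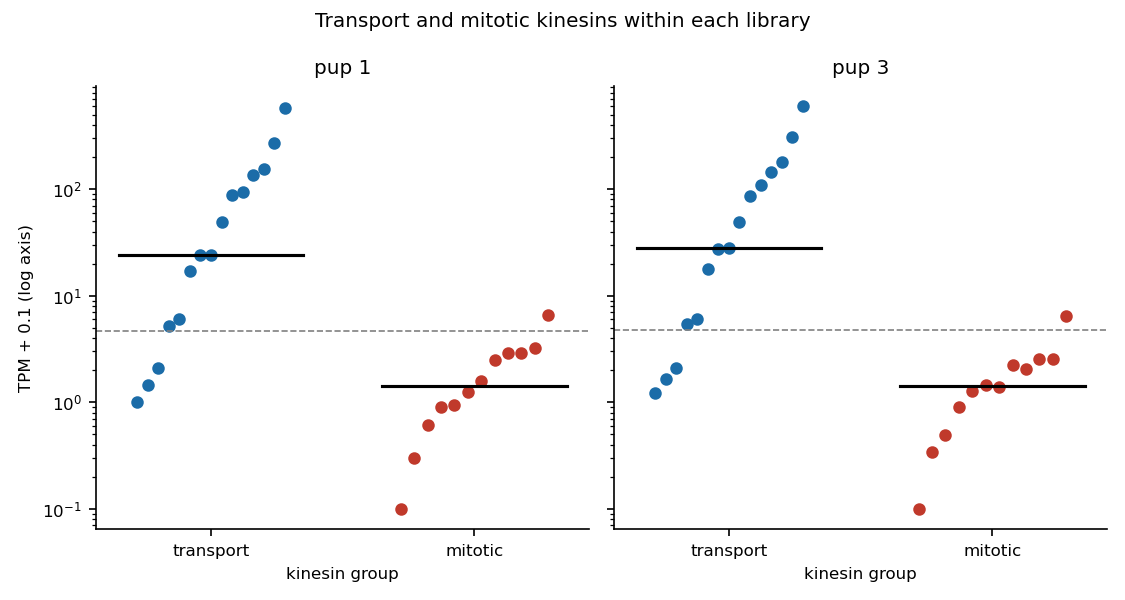
TPM + 0.1 on a log axis of the 15 transport kinesins (left, blue) and the 12 mitotic kinesins (right, red), in pup 1 (left panel) and pup 3 (right panel); each point is a gene, solid bars are the list medians and the dashed line is the median of all protein-coding genes. The medians are 24.02 and 1.32 TPM in pup 1 and 28.03 and 1.31 TPM in pup 3, and 10 transport kinesins lie above the highest mitotic one.

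Promoter letters were compared between these role groups, since genes expressed late in the cell cycle are known to carry a cell cycle homology region and CCAAT boxes near the start. The RefSeq table (build GRCm38.p6, 250 bases before to 50 after the start, first entry for each gene) matched 42 of the 54 members. TTTGAA or TTCGAA, on either strand, occurred in 9 of 11 mitotic kinesins and in 0 of 11 transport kinesins, against 19.4% of all 27025 promoters. In the remaining roles it occurred in 2 of 4 dynactin genes, 2 of 5 kinesins of the cilium and centriole and 1 of 4 other kinesins. It was in 0 of 3 light chains and 0 of 4 dynein genes. CCAAT, on either strand, occurred in 7 of 11 mitotic kinesins and in 3 of 11 transport kinesins, against 37.9% of all promoters. It was not particular to mitotic kinesins: 3 of 4 dynactin genes, 2 of 3 light chains and 3 of 5 kinesins of the cilium and centriole held it. Among other kinesins 1 of 4 held it, and among dynein genes 0 of 4. Both occurred together in 6 of 11 mitotic and 0 of 11 transport kinesins, against 7.7% of all promoters. They also did so in 2 of 5 kinesins of the cilium and centriole, 1 of 4 dynactin genes and 1 of 4 other kinesins. With every entry of a gene counted, 1 transport kinesin, Kif1a, held TTTGAA at its other start. Entries were not matched to the transcripts that held the TPM. That of Kif2c, among the 9 mitotic matches, lies inside the gene (chr4:117178723-117179022, minus strand). The transcript with 85.54% of Kif2c TPM in pup 1 and 90.93% in pup 3 starts at 117182639, and its promoter was not read. The first entry of Dctn1, among the 2 dynactin matches, also lies inside its gene (chr6:83179339-83179638, plus strand). The leading Dctn1 transcript starts at 83165951. Likewise, the Kif17 entry (chr4:138262001-138262300, plus strand), which holds neither motif, is not at the start of the leading Kif17 transcript, 138250435.

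The stretch from 100 bases before to 30 after the start is printed for 3 mitotic kinesins that hold both motifs and for the 2 leading neuronal transport kinesins that hold neither there, 5′ to 3′ on the strand of the gene; capitals mark the motif letters, of which ATTGG and TTCAAA are the reverse complements of CCAAT and TTTGAA.
Kif11, chr19:37376282-37376411, plus strand: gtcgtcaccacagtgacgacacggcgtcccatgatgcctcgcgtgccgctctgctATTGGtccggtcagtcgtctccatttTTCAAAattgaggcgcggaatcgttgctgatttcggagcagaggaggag
Kif22, chr7:127042391-127042520, minus strand: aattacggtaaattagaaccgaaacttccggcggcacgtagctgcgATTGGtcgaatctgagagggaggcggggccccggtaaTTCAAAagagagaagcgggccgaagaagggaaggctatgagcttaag
Kif23, chr9:61946770-61946899, minus strand: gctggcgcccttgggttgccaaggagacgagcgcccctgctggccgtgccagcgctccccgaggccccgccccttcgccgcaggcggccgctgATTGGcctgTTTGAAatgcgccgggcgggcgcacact
Kif1a, chr1:93101845-93101974, minus strand: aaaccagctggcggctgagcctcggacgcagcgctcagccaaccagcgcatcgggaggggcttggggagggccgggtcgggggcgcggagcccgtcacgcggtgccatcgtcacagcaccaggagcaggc
Kif5c, chr2:49619186-49619315, plus strand: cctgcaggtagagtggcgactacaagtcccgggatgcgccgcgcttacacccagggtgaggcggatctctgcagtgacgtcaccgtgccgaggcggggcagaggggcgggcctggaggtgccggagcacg
A match is a description of the letters and not a bound site, and binding was not measured.

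The 6 kinesins of the cilium, the centriole and hedgehog signalling lay between 3.26 ± 0.354 TPM for Kif9 and 0.93 ± 0.297 for Kif19a, and 4 of them reached 1 TPM in both pups. Kif9, a kinesin of motile cilia, had 3.01 TPM in pup 1 and 3.51 in pup 3. Kif7, a regulator of hedgehog signalling at the tip of the primary cilium, had 1.44 TPM in pup 1 and 1.24 in pup 3. Kif6 had 0.95 TPM in pup 1 and 1.41 in pup 3. Kif19a, which shortens cilia by depolymerising microtubules, had 0.72 TPM in pup 1 and 1.14 in pup 3. Below Kif9, the values of Kif7, Kif6, Kif27 and Kif24 overlapped from each to the next, so that their order is not resolved.

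Among the other kinesins, Kif2a and Kif1bp were the highest. Kif2a is a microtubule depolymerase that restrains the growth of axon branches, and had 73.24 TPM in pup 1 and 81.28 in pup 3. It exceeded its mitotic relative Kif2c by 4.97 ± 0.466 on the log2 scale, and by 3.86 ± 0.429 over complete coding transcripts. Kif1bp had 58.18 TPM in pup 1 and 62.43 in pup 3. Over complete coding transcripts their order was the reverse, with Kif2a at 31.7 ± 2.98 TPM and Kif1bp at 58.1 ± 2.38. Kif26b, at 5.28 ± 0.247 TPM, exceeded Kif26a, at 1.82 ± 0.332, by 1.49 ± 0.184; both encode atypical kinesins. Kif12 was near the floor with 8 counts in pup 1 and 9 in pup 3, and Kif28 had a count of 0 in both pups.

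Kinesin light chains link conventional kinesin to its cargo, and all 4 reached 1 TPM in both pups. Klc1 (ENSMUSG00000021288.14, chr12:111758849-111807844 on the plus strand) had 570.6 TPM in pup 1 and 556.15 in pup 3 and held most of the light chain level. Klc2 had 56.75 TPM in pup 1 and 58.43 in pup 3, and Klc4 had 18.81 TPM in pup 1 and 16.94 in pup 3. Klc3, known from sperm tails, had 1.03 TPM in pup 1 and 1.22 in pup 3. The log2 ratio was 3.29 ± 0.0559 for Klc1 over Klc2, 8.85 ± 0.185 for Klc1 over Klc3 and 1.68 ± 0.136 for Klc2 over Klc4, and all 3 pairs were apart. The Kif5 heavy chains summed to 328 ± 15.5 TPM and the light chains to 640 ± 10.2, a log2 ratio of -0.96 ± 0.0911 for the heavy over the light chains, or -1.23 ± 0.0792 over complete coding transcripts. Without division by length the same ratio was 0.38, of the opposite sign.

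Nearly all Klc1 level came from transcripts with a complete coding sequence, and these differ at the end that encodes the carboxyl terminus, the part known to select cargo. A form of 560 residues held 48.01% of Klc1 TPM in pup 1 and 47.1% in pup 3. A form of 542 residues held 38.67% in pup 1 and 38.65% in pup 3. Longer forms held less: the form of 616 residues 7.47% in pup 1 and 8.1% in pup 3, and the form of 608 residues 4.65% in pup 1 and 4.93% in pup 3. The order of the 4 forms was the same in both pups, and no values overlapped. The last 60 coding bases of each are printed to show the ends they carry, which the forms of 616 and 608 residues share, 5′ to 3′ on the plus strand from GENCODE M21 (GRCm38), with the stop codon in capitals and coordinates that span an intron.
Klc1, 560 residues, chr12:111789460-111793681: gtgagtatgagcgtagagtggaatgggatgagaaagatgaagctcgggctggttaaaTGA
Klc1, 542 residues, chr12:111789406-111794342: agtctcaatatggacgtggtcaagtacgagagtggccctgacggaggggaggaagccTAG
Klc1, 616 and 608 residues, chr12:111806018-111806317: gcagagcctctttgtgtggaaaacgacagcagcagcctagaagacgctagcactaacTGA
Counted from the start codon, the coding sequence of 560 residues has 1683 bases, and the forms of 542, 616 and 608 residues are identical to it for their first 1624, 1650 and 1488 bases.

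Subunits of cytoplasmic dynein were all well expressed, from 170.1 ± 5.9 TPM for Dync1i2 to 48.2 ± 4.63 for Dync1h1. Dync1i2, the intermediate chain found in most tissues, had 165.89 TPM in pup 1 and 174.23 in pup 3. Dync1i1, the intermediate chain known from neurons, had 63.13 TPM in pup 1 and 61.46 in pup 3, and lay below Dync1i2 by a log2 ratio of -1.45 ± 0.0773. Of the light intermediate chains, which bind cargo adaptors, Dync1li1 had 125.27 TPM in pup 1 and 135.31 in pup 3, and Dync1li2 had 48.95 TPM in pup 1 and 51.12 in pup 3. Dync1li1 exceeded Dync1li2 by 1.38 ± 0.0344, and both pairs were apart. The heavy chain Dync1h1, the motor itself (ENSMUSG00000018707.9, chr12:110601452-110666945 on the plus strand), had 44.95 TPM in pup 1 and 51.5 in pup 3, which overlapped Dync1li2.

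Per length, the heavy chain was below the intermediate chains and Dctn1. Dync1h1 over both intermediate chains gave a log2 ratio of -2.27 ± 0.109, or -3.74 ± 0.139 over complete coding transcripts. Dync1h1 over Dctn1 gave -1.55 ± 0.135, or -2.92 ± 0.177 over complete coding transcripts. Dync1h1 exceeded Dync2h1, the heavy chain of the ciliary dynein, at 11.06 ± 2.55 TPM, by 2.13 ± 0.194, a pair called apart; over complete coding transcripts the ratio was 0.92 ± 0.142 and the pair was not.

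Dynactin, the activator that couples dynein to cargo and raises its processivity, had the highest median of the role groups, at 189.5 TPM in pup 1 and 183.4 in pup 3, and 5 of its 6 members reached 100 TPM in both pups. Dctn3, a subunit of the shoulder, had 294.16 TPM in pup 1 and 262.58 in pup 3. Dctn2, also of the shoulder, had 266.09 TPM in pup 1 and 242.94 in pup 3, so Dctn3 was the higher in each pup, with separate intervals, although the values overlapped between pups. Dctn6, of the pointed-end complex, had 234.99 TPM in pup 1 and 225.45 in pup 3. Dctn1, the large subunit that binds microtubules and dynein, had 140.87 TPM in pup 1 and 141.36 in pup 3. Dctn1 over Dctn2 gave a log2 ratio of -0.85 ± 0.0964 and Dctn3 over Dctn1 one of 0.98 ± 0.119, and neither pair was called apart. Dctn5, also of the pointed-end complex, had 143.94 TPM in pup 1 and 122.68 in pup 3, on either side of Dctn1. Dctn4 was the lowest at 71.2 ± 2.96 TPM. Over complete coding transcripts Dctn6 was the lower of these, at 43.44 ± 4.115 TPM, while Dctn4 stayed at 71.2 ± 2.96. Over all fixed pairs, 15 of 22 were apart, in 13 of them with the first-named gene higher and in 2 with the second higher.

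Gene TPM hid a difference in what kind of transcript carried it. Each transcript was classed by the annotation as complete coding, incomplete coding (start or stop missing), nonsense-mediated decay, or noncoding (retained introns and processed transcripts). Of 52 members with reads, 34 had over 90% of their TPM in complete coding transcripts and 10 had under 50%. The same shares were not computed over all protein-coding genes, so these numbers are not read as a trait of the members. By expected count, 40 of the 52 had over 90% and 4 had under 50%, because a short transcript needs few reads to reach a high TPM.

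Kif1a, the highest member, was among these genes. Its complete coding transcripts held 23.7% ± 0.221 of its TPM, but 83.16% of its expected counts in pup 1 and 83.01% in pup 3. A transcript of 528 bases with an incomplete coding sequence (chr1:93077724-93101834) held 52.16% of Kif1a TPM in pup 1 and 52.17% in pup 3. A noncoding transcript of 570 bases held 23.93% in pup 1 and 24.24% in pup 3. The transcript that encodes 1697 residues held 13.28% in pup 1 and 13.68% in pup 3, yet drew 14425 counts in pup 1 and 16805 in pup 3. Over complete coding transcripts Kif1a averaged 139.8 ± 2.15 TPM, and Kif5c 139.5 ± 6.34, which overlapped. The lead of Kif1a was thus not seen on that scale. Kif3a was then the highest transport kinesin at 160.7 ± 5.16, and Klc1 the highest member at 556.6 ± 10.1.

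Kif1b is known in a longer form that carries vesicle precursors and a shorter form that carries mitochondria. The transcript for 1816 residues held 43.27% of its TPM in pup 1 and 40.85% in pup 3, and the one for 1150 residues 1.52% in pup 1 and 1.6% in pup 3. A retained-intron transcript of 587 bases held the largest part, 45.08% in pup 1 and 44.82% in pup 3, with 778.9 counts in pup 1 and 991.25 in pup 3. Of the 17 genes fixed for transcript reading, Kif1b was the 1 whose leader was noncoding.

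In Dync1h1, a retained-intron transcript of 427 bases held 56.34% of TPM in pup 1 and 53.37% in pup 3 from 192.12 counts in pup 1 and 227.74 in pup 3. The full transcript of 14342 bases, for 4644 residues, held 35.28% in pup 1 and 36.3% in pup 3 from 5224 counts in pup 1 and 6726 in pup 3. In Kif2a an incomplete transcript of 288 bases held 58.99% of TPM in pup 1 and 57.23% in pup 3. In Kif5b an incomplete transcript of 2006 bases held 60.2% in pup 1 and 57.92% in pup 3. Dctn6 was led by a retained-intron transcript of 769 bases, with 57.39% in pup 1 and 58.26% in pup 3, and its complete coding transcripts held 27.98% of its counts in pup 1 and 25.17% in pup 3. Of the 54 members, 18 share exon bases with genes on the opposite strand, among them Dctn6, Dync1h1, Kif2a and Kif5b. So do Klc1 and Kif3c, which are almost wholly complete coding, while Kif1a, Kif1b and Kif21b do not. Whether reads were counted by strand is not given in the sources used here. Any part of such overlap in these shares was not tested, and its frequency among all genes was not computed.

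Other leading members drew on full transcripts. Kif5c had 99.7% ± 0.0953 of its TPM in complete coding transcripts, and Kif22, Dync1li1 and Dctn2 were each quantified from 1 transcript. Dctn1 was led by a form of 1264 residues, with 57.55% in pup 1 and 52.8% in pup 3, ahead of a form of 1142 residues, with 20.95% in pup 1 and 22.66% in pup 3. Dync1i1 was led by a form of 628 residues at 74.1% ± 1.95 and Dync1i2 by a form of 632 residues at 63.2% ± 1.53. Of 17 genes read by rule, 13 were led by a complete coding transcript, and 15 had the same leader in both pups. Kif3a did not: its transcript for 701 residues held 33.55% in pup 1 and 29.05% in pup 3, and a transcript of 770 bases annotated for nonsense-mediated decay held 28.06% in pup 1 and 34.97% in pup 3. Kif9 was the other, with its leader at 68.54% in pup 1 and 44.96% in pup 3.

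**Figure D3:**
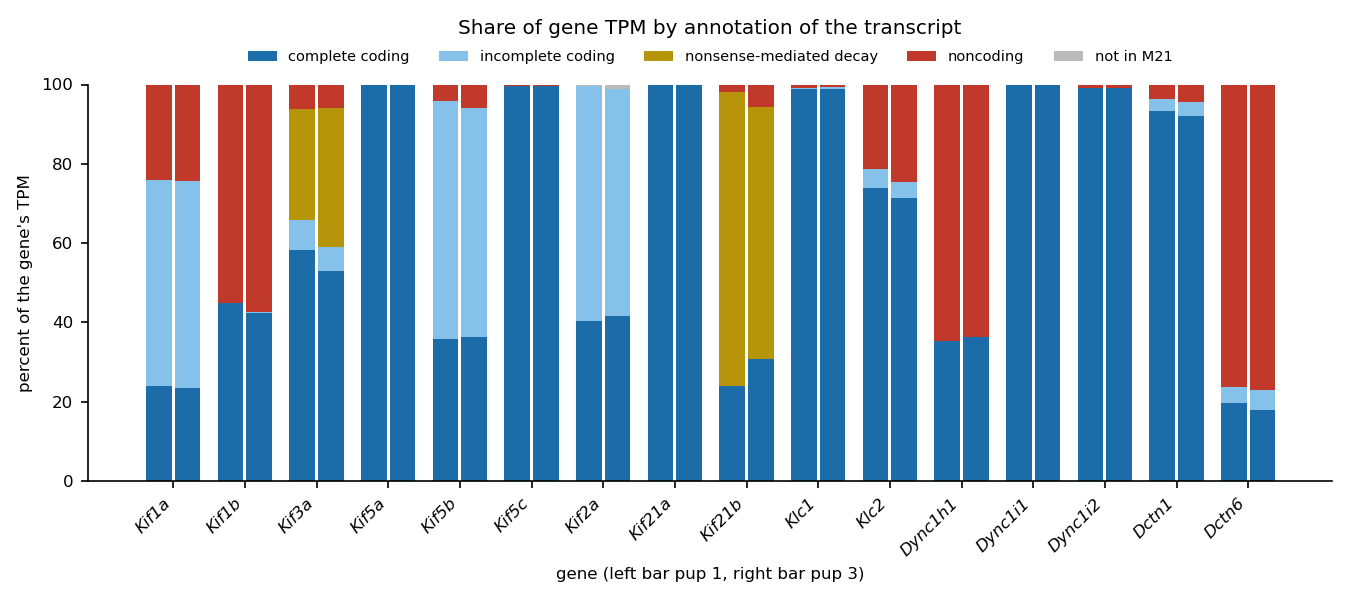
Percent of each gene's TPM assigned to transcripts of each annotation class, for 16 motor genes, with pup 1 as the left bar and pup 3 as the right bar of each gene. Kif5a, Kif5c, Kif21a, Klc1, Dync1i1 and Dync1i2 are almost wholly complete coding, whereas Kif1a, Kif1b, Kif5b, Kif2a, Kif21b, Dync1h1 and Dctn6 have less than 50% in that class in both pups.

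**Figure D4:**
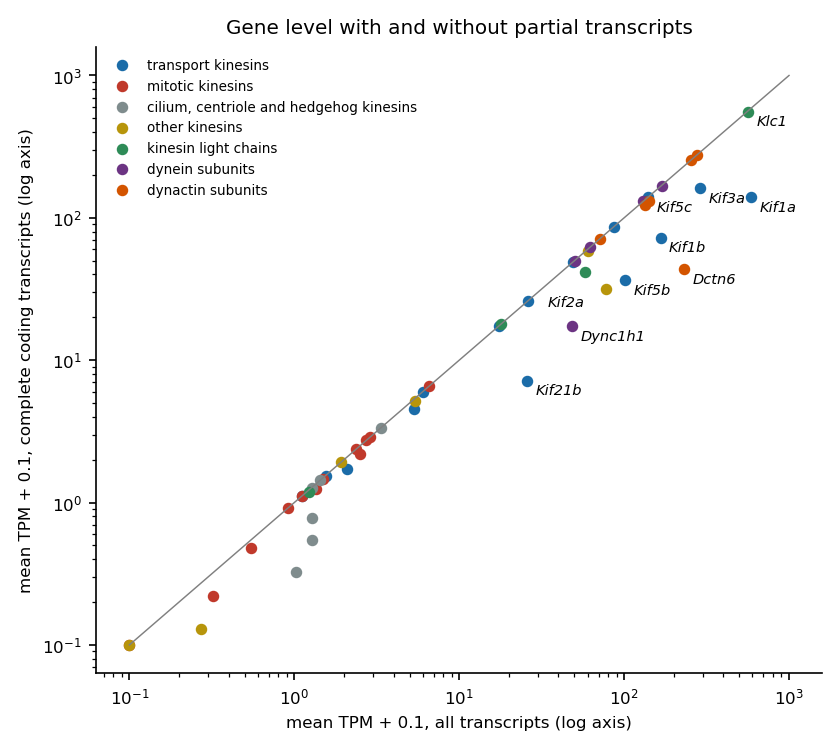
Mean TPM + 0.1 of each motor gene over complete coding transcripts (vertical, log axis) against that over all transcripts (horizontal, log axis), coloured by role, with the line of equality. Most genes lie on the line; Kif1a has 139.8 TPM from complete coding transcripts, level with Kif5c, and Dync1h1 has 17.3 TPM.

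The wider pathway was well represented. Of 41 adaptors, light chains, regulators and related motors, 40 reached 1 TPM in both pups and 13 reached 100 TPM, with a median of 62.1 ± 5.83 TPM. Kinesin cargo adaptors included Fez1 at 452.4 ± 9.56 TPM and Mapk8ip1 at 150.6 ± 1.29. Hap1, which binds both kinesin-1 and dynactin, had 521.7 ± 20.1 TPM. Pafah1b1, the dynein regulator Lis1, had 53.07 TPM in pup 1 and 66.21 in pup 3. The dynein light chains Dynll1, at 771.9 ± 22.3 TPM, and Dynlrb1, at 694 ± 48.4, stood above every Dync1 gene. Dynlt1b had 975.5 ± 40.1 TPM, but its near-identical copies share reads, so this value is uncertain. Actr1a, the actin-related protein that forms the dynactin filament, had 281.8 ± 11.2 TPM. Low members were the mitotic motors Kifc1, at 1.56 ± 0.474 TPM, and Cenpe, at 1.29 ± 0.0495, and the kinetochore dynein adaptor Spdl1, at 0.795 ± 0.219.

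Few genes of any kind passed the threshold between the pups, and no motor gene did. Among the 44 members with a mean expected count of at least 100, none was higher in pup 1 by over 1 on the log2 scale, against 0.0713% of all 12620 protein-coding genes so read, and none was lower in pup 1 by that much, against 0.182%. With a single library for each pup, no replicate check of these differences exists. These counts of 0 are near the shares of all genes, and so are no trait of the motor genes. The median size of the difference was larger for the members, at 0.151, than for all those genes, at 0.108. The extremes were mitotic: Kif2c was higher in pup 1 by 0.53, from 161 counts in pup 1 and 127 in pup 3 (95% exact binomial interval of the log2 count ratio, scaled for depth, 0.14 to 0.83), and Kif20b lower in pup 1 with -0.46, from 107 counts in pup 1 and 162 in pup 3 (interval -0.82 to -0.09). Kif20a was higher in pup 1 by 0.34. Kif20b over Kif20a, at -1.38 ± 0.528, was not called apart, although Kif20b was lower than Kif20a in each pup.

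Of the members at that count, transport kinesins were higher in pup 1 for 2 genes and lower for 13, with a median of -0.09, whereas mitotic kinesins were higher for 6 and lower for 2, with a median of 0.18. Proliferating cell markers were higher in pup 1 for 1 gene and lower for 5, with a median of -0.15, the opposite direction to the mitotic kinesins. Multiciliated cell markers summed to 26.61 TPM in pup 1 and 35.26 in pup 3. Of these 6 markers, 5 reached 1 TPM in both pups, and all of these 5 were lower in pup 1, with a median of -0.43. Of the kinesins of the cilium and centriole, Kif9, Kif6, Kif27 and Kif19a had the lower TPM in pup 1. Kif7 and Kif24 did not. Kif6, Kif19a and Kif24 had mean counts of 70, 39.5 and 78, under the minimum of 100. By count, Kif24 was lower in pup 1, with 68 against 88 in pup 3, a depth-scaled log2 ratio of -0.23. For each kinesin of the cilium and centriole, the exact binomial interval of the log2 count ratio spanned both signs. Their directions were therefore not resolved, and the part of ciliated cells in them was not tested. The median of all genes was -0.02.

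**Figure D5:**
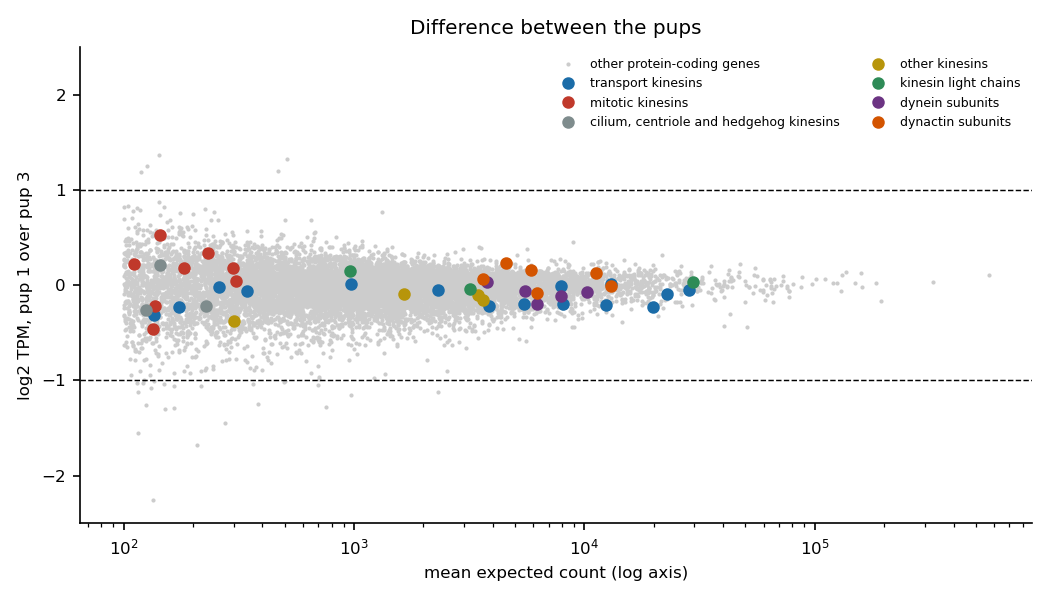
Log2 of TPM in pup 1 over pup 3 against mean expected count (log axis) for the 44 motor genes whose mean count is at least 100, coloured by role, over all other protein-coding genes in grey (genes at 0 TPM in 1 pup are not drawn); dashed lines mark the threshold of 1 in either direction. No motor gene passes a line, and the spread narrows as counts rise.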

How the data were processed

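Total RNA of 1 midbrain from each of 2 pups was sequenced; the labels say that these are separate animals, and give 10 ng of starting RNA above 200 nt. For each library the authors deposited gene and transcript tables, made on mm10 with GENCODE M4 per the text record beside them; the program and the use of strand were not given in the sources used here, and the column names are those RSEM writes. The deposited expected counts are estimated reads per feature. The deposited TPM values divide these by effective length. The deposited IsoPct values are the percent of a gene's TPM held by a transcript. The authors' tables also hold posterior mean TPM and the bounds of its credibility interval, a signal whose level is not stated.

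Members, role lists and pairs were chosen with earlier results of these data known. Symbols, transcript classes and coding sequences came from GENCODE M21, by identifier without version; 240 of 241 member transcripts matched, 216 of them with the same length. A symbol was found for 98.0% of 43346 Ensembl genes. Ratios were taken as log2 of TPM + 0.1, which understates ratios of low genes. Named were all genes of the fixed pairs, the 3 highest and the lowest of each role group, members past the pup threshold and those at 0 in both pups; further genes were named after their values were seen. In the transcript reading, the 2 highest members of each role group and Kif1b, Klc1, Dync1i1, Dync1i2 and Dctn1 were fixed, and the rest were added after their shares were seen.

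The median TPM value of 1 count was 0.0194 in the library of pup 1 and 0.0179 in that of pup 3, among genes of at least 1 TPM. Counts were called whole within 0.005, which held for 45 of the 54 members in both pups. A count of 0 allows up to 3 counts; this floor and the exact 95% binomial intervals cover counting error only. Rounded expected counts (whole numbers) gave the scaling factors of edgeR 4.0.16 (TMM) and DESeq2 1.42.0, under R 4.3.3; other steps used Python 3.11.15, pandas 2.3.3, numpy 2.4.6, SciPy 1.17.1 and matplotlib 3.10.9. The comparison of pups was tested on simulated data. Alternatives were other pseudocounts, thresholds, scalings and role lists, posterior means, undivided counts, and each pup left out; the complete coding transcripts alone were added as an alternative after the data were seen.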

Additional observations from a re-analysis of the deposited data

How the results depend on the processing

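Each role contrast and ratio kept its direction in every setting run, except that Kif5 heavy over light chains was 0.38 without division by length. Of the role shares, only that of transport kinesins was followed across settings, so the order of the shares was not compared there. Transport over mitotic kinesins was 3.54 with a pseudocount of 1 TPM, 4.04 from posterior means, 5.40 from undivided counts, 3.44 over members averaging at least 1 TPM, and 5.58 with narrow role lists, which leave out kinesins with further roles. Undivided counts gave transport kinesins 50.5% of the members' total, Dync1h1 over intermediate chains -1.18, Dync1h1 over Dctn1 -1.08 and kinesin-2 over Kifap3 0.86; complete coding transcripts gave 26.6%, -3.74, -2.92 and 0.77, and -1.23 for Kif5 over light chains. Among pairs, undivided counts turned Kif5a over Kif5b (0.70), Kif21a over Kif21b (-0.51), Dctn1 over Dctn2 (0.22) and Dctn3 over Dctn1 (-1.16), and complete coding transcripts turned Kif5a over Kif5b, 1.25 (undivided counts also left Kif1a over Kif1b, at 0.53, and Dync1li1 over Dync1li2, at 0.52, not apart). The count of pairs apart lay between 15 and 17, but not of the same pairs: Kif5c over Kif5b became apart with undivided counts and with complete coding transcripts (1.94), as did Dctn3 over Dctn1 (1.08 with the coding transcripts); Kif5a over Kif5b and Kif21a over Kif21b (1.89) became apart with complete coding transcripts, while Kif1a over Kif1b (0.95) and Dync1h1 over Dync2h1 (0.92) did not stay so. Pairs over complete coding transcripts were called without the condition on credibility intervals, and the gene intervals of Kif21a and Kif21b overlap. Leaving out a pup gave 4.09 to 4.32 for transport over mitotic kinesins and 44 to 48 members present. Between the pups, 1 member passed with a threshold of 0.5 (Kif2c) and 1 with no count filter (Kif12, with 8 counts in pup 1 and 9 in pup 3), and 0 with TMM or DESeq2 scaling, where the members' median moved to -0.02. The cause of these moves was not tested. At this depth 10 members had a mean count under 100, so their order is loose. No paired analysis was possible because the labels give only 1 group.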

Other observations

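Namesakes of the motor genes that the rule left out were almost silent. Kif16bos, an RNA antisense to Kif16b (chr2:142902965-142903572, mm10), had 2 counts in the library of pup 1 and 3 in that of pup 3. The pseudogenes Kif22-ps and Kif4-ps had a count of 0 in both pups, which allows up to 3 counts in each. Kinesins with the motor at the carboxyl end were not among the members: Kifc2, a kinesin of neurons, had 97.94 TPM in pup 1 and 89.9 in pup 3, and Kifc3 had 30.55 TPM in pup 1 and 31.96 in pup 3. Among dynactin genes, Actr1a exceeded Actr1b, at 98.3 ± 4.19 TPM (SD, n = 2), in both pups.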
